A study of Mus musculus with 6 samples.

Results

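Mast cells are resident immune cells of connective tissue that store histamine and proteases in granules and release them when IgE receptors or other surface receptors are triggered. They need KIT, the receptor for stem cell factor, to develop and survive, and the transcription factor GATA2 to keep their identity. In mouse skin they are of the connective tissue type, whose granules hold the carboxypeptidase encoded by Cpa3, the chymases encoded by Cma1 and Mcpt4, and the tryptases encoded by Tpsb2 and Tpsab1.

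The 9 genes described here were chosen by symbol: these 5 proteases together with Hdc, Ms4a2, Kit and Gata2. All 9 were found among the 23412 genes of the deposited table. The libraries came from ventral dermis of 3-week-old mice on a mixed CD1 and C57BL/6 background, 3 mutants and 3 littermate controls. Mutants carried HoxB6CreERT/+, R26-YFP/+ and CatnbΔex3/+, an allele that yields activated beta-catenin once Cre has acted. Controls carried HoxB6CreERT/+ and R26-YFP/+ without that allele. Both groups were exposed to tamoxifen through maternal gavage on embryonic day 16.5. The Cre is driven by HoxB6 and acts in fibroblasts of the ventral dermis, so mast cells are not the cells in which the labels place the allele. The comparison asks how RNA of these genes differs in dermis whose fibroblasts hold activated beta-catenin.

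Values are FPKM as the authors deposited them, that is, fragments scaled for gene length and for library size. Reads recovered from the FPKM steps came to 11839144 to 13478910 per mutant library and 7799565 to 9675359 per control library. Controls 1 and 2 had 55.5 and 66.2 FPKM of Xist and almost no Y-linked RNA, while all 3 mutants and control 3 expressed Y-linked genes, and mutant 2 also had 6.47 FPKM of Xist. Whether mutant 2 holds RNA of another sample was not tested. Without it the log2 differences were 1.68 for Cpa3, 1.39 for Cma1, 1.65 for Mcpt4, 0.90 for Tpsb2, 0.33 for Hdc and 0.13 for Kit, and no member passed the test (adjusted p from 0.267 to 0.518). Markers of dermal fibroblasts were abundant in every library, with summed levels of 9313 to 13324 FPKM in mutants and 2639 to 10333 FPKM in controls for Col1a1, Col1a2, Col3a1, Dcn and Pdgfra. The epidermal keratin genes Krt5, Krt14, Krt1 and Krt10 summed to 516 to 571 FPKM in mutants and 408 to 534 FPKM in controls, so keratinocyte RNA was present in the separated dermis.

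GATA factors bind the core word GATA, and the promoters of 4 genes whose levels did not overlap between mutants and controls are shown for their matches to such words. Each is the 250 bases before the RefSeq start (build GRCm38.p6), 5′ to 3′ on the gene's strand. The words searched were AGATAA and also its variant with a first T, which is TGATAA, together with AGATAG and the variant of that with a first T, which is TGATAG. Capitals mark a match on either strand. Tpsb2 and Tpsab1 are named without a promoter. Gata2, whose levels did not overlap either, had no match and is not shown. Hdc, whose levels overlapped, had a match and is not shown. The 4 were thus picked by level and by match, so they show no link between levels and words.
Cpa3, minus strand, chr3:20242182-20242431: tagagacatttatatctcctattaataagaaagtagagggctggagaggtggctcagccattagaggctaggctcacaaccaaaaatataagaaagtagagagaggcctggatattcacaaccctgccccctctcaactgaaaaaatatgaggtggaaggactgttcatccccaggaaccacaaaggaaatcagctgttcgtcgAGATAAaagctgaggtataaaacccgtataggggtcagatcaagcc
Cma1, minus strand, chr14:55944676-55944925: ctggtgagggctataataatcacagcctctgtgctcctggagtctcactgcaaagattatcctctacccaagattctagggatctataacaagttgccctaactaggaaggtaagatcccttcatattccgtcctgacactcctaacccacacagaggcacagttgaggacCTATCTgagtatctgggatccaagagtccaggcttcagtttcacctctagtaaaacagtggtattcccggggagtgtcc
Mcpt4, minus strand, chr14:56062311-56062560: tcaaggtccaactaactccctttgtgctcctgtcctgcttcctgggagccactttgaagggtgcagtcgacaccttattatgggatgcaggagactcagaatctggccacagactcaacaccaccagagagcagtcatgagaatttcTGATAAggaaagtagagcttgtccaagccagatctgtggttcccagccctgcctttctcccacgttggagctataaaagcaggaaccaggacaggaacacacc
Ms4a2, minus strand, chr19:11623720-11623969: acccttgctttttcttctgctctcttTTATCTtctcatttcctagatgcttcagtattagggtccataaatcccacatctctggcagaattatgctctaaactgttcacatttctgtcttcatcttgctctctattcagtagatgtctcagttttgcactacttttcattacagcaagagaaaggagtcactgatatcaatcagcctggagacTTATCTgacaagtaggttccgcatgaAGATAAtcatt

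One of the 4 words lay 46 bases before the start of Cpa3, 79 bases before that of Cma1 and 103 bases before that of Mcpt4, counted to the first letter of the word. Ms4a2 held 3 words, at 224, 37 and 11 bases, and Hdc held 1, at 221 bases. The words did not overlap each other, and neither window of Kit nor of Gata2 held one. Of 32851 promoter windows of this length, 26.5% held at least 1 such word. The members had 9 windows, for 7 of the 9 genes, and 5 of the windows held a word. This share was not tested. A word is a match of letters and not a binding site.

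The granule protease genes Cpa3, Mcpt4, Cma1 and Tpsb2 had mean FPKM 2.18 to 3.3 times as high in mutant as in control dermis, while the means of Kit differed by less than its spread. Cpa3 averaged 15.7 ± 5.08 FPKM in mutants and 4.75 ± 2.74 FPKM in controls (mean ± SD, n = 3 each here and elsewhere). Mcpt4 averaged 15.5 ± 7.35 FPKM in mutants and 4.70 ± 1.94 FPKM in controls, and Cma1 10.9 ± 4.63 FPKM in mutants and 3.70 ± 0.876 FPKM in controls. Tpsb2, at a lower level, averaged 4.20 ± 0.921 FPKM in mutants and 1.92 ± 0.544 FPKM in controls. None of the 9 genes passed the adjusted threshold of 0.05 in limma's test over 12560 genes, where 18 genes, 0.143%, passed higher in mutants and 0 passed lower (94 were lower at an unadjusted p under 0.05, and limma-voom on recovered reads called 0 lower). Of the 6 members averaging 1 FPKM or more over all libraries, 5 were higher at an unadjusted p under 0.05, against 10.5% of all tested genes. One of the 5, Hdc, reached that average through the mutants, and without it the count was 4 of 5. Over all 9 members, fitted without the filter, the median log2 difference was 0.40, against 0.02 for all genes. The latter include 1820 genes at 0 in every library, whose difference is 0. In whole dermis, fewer or more mast cells and less or more RNA per cell cannot be told apart.

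**Figure D1:**
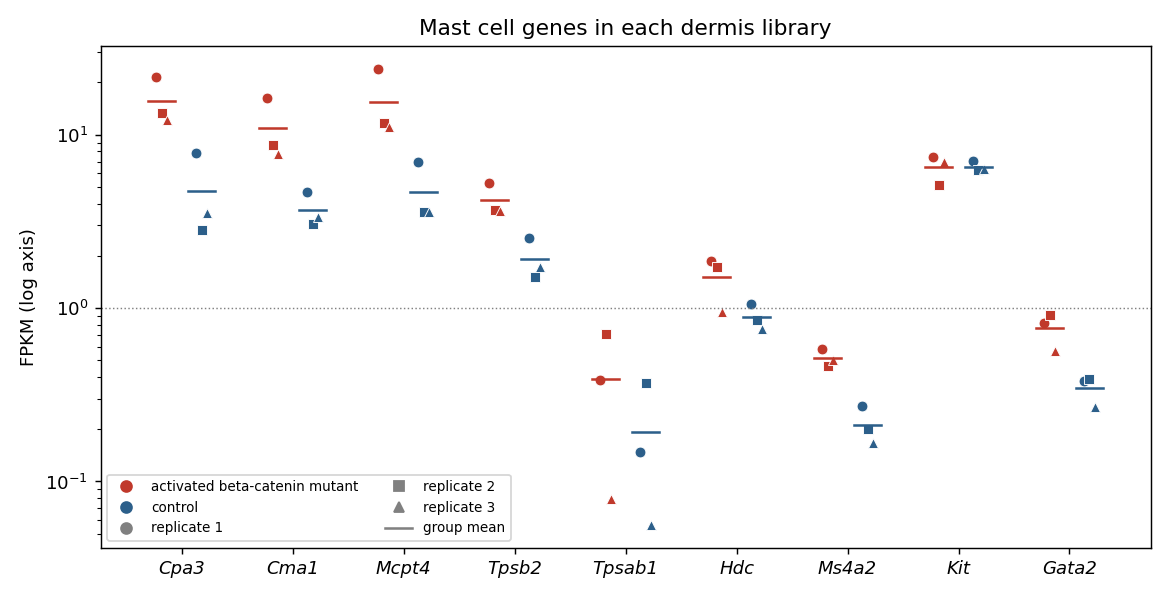
FPKM of the 9 genes in each library on a log axis, mutants in red on the left of each pair and controls in blue on the right, with a bar at each group mean and a dotted line at 1 FPKM. Mutants lie above all controls for Cpa3, Cma1, Mcpt4, Tpsb2, Ms4a2 and Gata2, and the groups overlap for Tpsab1, Hdc and Kit.

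Cpa3 encodes carboxypeptidase A of mast cell granules (chromosome 3, 20215620 to 20242181, GRCm38). It was at 21.5, 13.4 and 12.1 FPKM in mutants 1 to 3, against 7.88, 2.82 and 3.55 FPKM in controls 1 to 3. Every mutant lay above every control, and mutant 1 and control 1 were the highest of their groups. On the log2(FPKM + 1) scale, which understates the change of low genes, the difference was 1.60 (SE 0.31, 95% interval 0.90 to 2.29, limma adjusted p = 0.0845). The values rest on 374 to 611 reads per mutant library and 65 to 195 reads per control library.

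The chymase genes Cma1 (chromosome 14, 55941451 to 55944675) and Mcpt4 (chromosome 14, 56059629 to 56062313) lie on the same strand, 114954 bases apart. Mcpt4 encodes the main chymotrypsin-like activity of mouse connective tissue mast cells, which cleaves proteins after aromatic residues. Cma1 was at 16.2, 8.75 and 7.69 FPKM in mutants 1 to 3, against 4.69, 3.05 and 3.36 FPKM in controls 1 to 3. Mcpt4 was at 24.0, 11.6 and 11.0 FPKM in mutants 1 to 3, against 6.94, 3.57 and 3.58 FPKM in controls 1 to 3. For both genes the groups did not overlap, and mutant 1 stood well above the other mutants. The log2 difference was 1.29 for Cma1 (SE 0.25, 95% interval 0.73 to 1.84, adjusted p = 0.0845) and 1.50 for Mcpt4 (SE 0.30, 95% interval 0.82 to 2.18, adjusted p = 0.0957). The transcripts were 68.1% identical over 702 aligned bases and shared no stretch of 50 bases (0 of 1025 windows).

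The tryptase genes Tpsb2 (chromosome 17, 25366305 to 25369098) and Tpsab1 (chromosome 17, 25343245 to 25345562) lie 20743 bases apart on opposite strands. Tryptases are trypsin-like proteases that are stored as tetramers with heparin. Tpsb2 was at 5.26, 3.70 and 3.63 FPKM in mutants 1 to 3, against 2.54, 1.51 and 1.72 FPKM in controls 1 to 3. All mutants lay above all controls, with 84 to 112 reads per mutant library and 26 to 47 reads per control library. The log2 difference was 0.83 (SE 0.17, 95% interval 0.45 to 1.22, adjusted p = 0.097).

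Tpsab1 was the lowest of the 9 genes, at 0.386, 0.708 and 0.0789 FPKM in mutants 1 to 3 and at 0.148, 0.371 and 0.0562 FPKM in controls 1 to 3. These values stand for 9, 18 and 2 reads in mutants and 3, 7 and 1 reads in controls, so the groups overlapped and replicate 2 was highest in both. Its mean of 0.291 FPKM was under the filter, and without the filter the log2 difference was estimated at 0.21, with a 95% interval from -0.31 to 0.72 and an adjusted p of 0.773. C57BL/6 mice are known to carry a splice-site change that prevents Tpsab1 expression. The background here was mixed, the allele of each mouse is not given in the labels, and its part in these values was not tested. The Tpsab1 and Tpsb2 transcripts were 74.9% identical over 895 aligned bases with 0 of 1107 windows of 50 bases in common. Whether shared reads were split between them is not given in the sources used here.

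Hdc encodes histidine decarboxylase, which makes histamine (chromosome 2, 126593667 to 126619299). It was at 1.87, 1.73 and 0.949 FPKM in mutants 1 to 3, against 1.06, 0.848 and 0.760 FPKM in controls 1 to 3. Mutant 3 lay below control 1, so the groups overlapped, and the log2 difference was 0.40 (SE 0.17, 95% interval 0.02 to 0.77, adjusted p = 0.416). The control mean was 0.890 FPKM, so Hdc passed the filter through the mutants.

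Ms4a2 encodes the beta chain of the high-affinity IgE receptor (chromosome 19, 11615523 to 11623719). It was at 0.581, 0.466 and 0.501 FPKM in mutants 1 to 3, against 0.271, 0.202 and 0.166 FPKM in controls 1 to 3, from 28 to 32 reads per mutant library and 7 to 13 reads per control library. The groups did not overlap, and the mean in mutants was 2.42 times that in controls. Ms4a2 was under the filter. Fitted without it, the groups differed by 0.32 on the log2 scale, with a 95% interval from 0.20 to 0.44 and an adjusted p of 0.278.

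Gata2 was at 0.819, 0.910 and 0.565 FPKM in mutants 1 to 3, against 0.380, 0.389 and 0.268 FPKM in controls 1 to 3 (chromosome 6, 88193891 to 88207032). All mutants lay above all controls, and the mean in mutants was 2.21 times that in controls. It too was under the filter, and the fit without it gave 0.39 on the log2 scale, with a 95% interval from 0.16 to 0.62 and an adjusted p of 0.421. Endothelium also expresses Gata2. Of 5 endothelial genes (Pecam1, Cdh5, Kdr, Tek and Emcn), 2 had separate groups, against 13.0% of all tested genes. The median log2 difference of the 5 was 0.23, against 0.09 for all tested genes. Their summed level was 33.7 to 42.5 FPKM in mutants and 26.6 to 32.6 FPKM in controls, and their part in the Gata2 values was not tested.

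Kit (chromosome 5, 75574916 to 75656722) was at 7.44, 5.11 and 6.94 FPKM in mutants 1 to 3, against 7.01, 6.22 and 6.30 FPKM in controls 1 to 3. The groups overlapped, and mutant 2 was the lowest of all 6 libraries. The log2 difference was -0.01 (SE 0.15, 95% interval -0.34 to 0.31, adjusted p = 0.986), with 488 to 765 reads per library. Melanocytes also express Kit. The melanocyte genes Dct, Tyr, Tyrp1, Pmel and Mlana summed to 34.5 to 62.9 FPKM in mutants and 51.1 to 59.3 FPKM in controls, with a median log2 difference of -0.13, and mutant 2 was lowest for all 5. Their part in the Kit values was not tested.

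**Figure D2:**
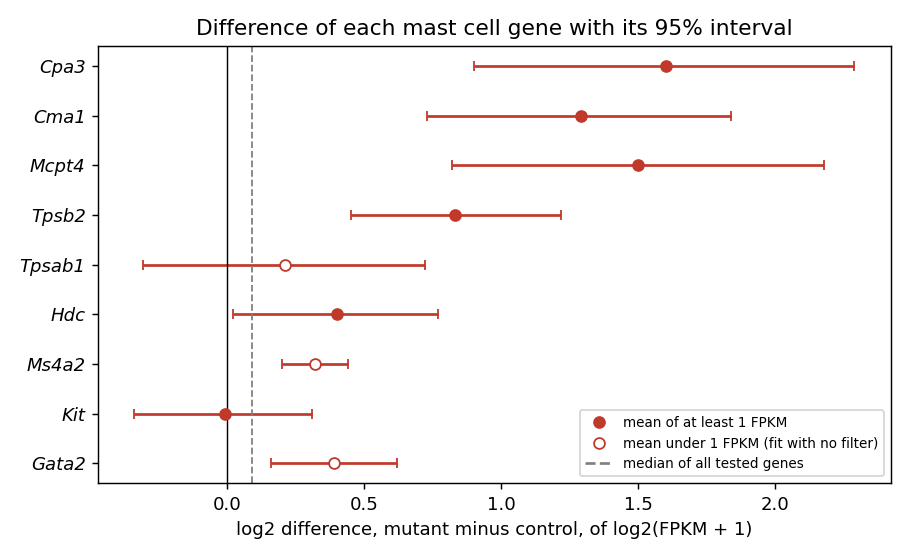
Log2 difference of each gene, mutant minus control, with its 95% interval. Filled points come from the fit of genes averaging 1 FPKM or more and open points from the fit with no filter, and the dashed line is the median of all tested genes, 0.09. Intervals of Cpa3, Cma1, Mcpt4 and Tpsb2 lie above that line, while those of Kit, Tpsab1 and Hdc span it.

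In 6 of the 9 genes every mutant lay above every control, against 10.1% of all 23412 genes. Of the latter, 1820 were at 0 in every library and could not separate. Among the 6 tested members it was 4, against 13.0% of tested genes. Mutant 1 was the highest mutant for 7 of the 9 genes and control 1 the highest control for 7, while Tpsab1 and Gata2 were highest in replicate 2 of both groups. Mutant 1 also had the highest median-of-ratios factor, 1.18, which follows the middle gene of a library, and control 2 the lowest, 0.885. After scaling by these factors the log2 differences were 1.49 for Cpa3, 1.18 for Cma1, 1.39 for Mcpt4 and 0.74 for Tpsb2.

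The 4 proteases together took 0.0113%, 0.00802% and 0.00689% of gene reads in mutants 1 to 3 (95% Wilson intervals 0.0108 to 0.0119%, 0.00752 to 0.00854% and 0.00644 to 0.00736%). In controls 1 to 3 they took 0.0046%, 0.00255% and 0.00237% (0.00419 to 0.00505%, 0.00222 to 0.00293% and 0.00207 to 0.00272%). These intervals cover counting error only. No mutant interval met a control interval, but these 4 genes were the tested members with separate groups, so the choice favoured separate sums. All 9 members together took 0.0183%, 0.0145% and 0.0139% of gene reads in mutants 1 to 3. In controls 1 to 3 the 9 took 0.0118%, 0.00997% and 0.00837%.

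By mean FPKM, which is per length, the order in mutants was Cpa3, Mcpt4, Cma1, Kit, Tpsb2, Hdc, Gata2, Ms4a2 and Tpsab1. In controls Kit came first, at 6.51 ± 0.433 FPKM, ahead of Cpa3, Mcpt4, Cma1, Tpsb2, Hdc, Gata2, Ms4a2 and Tpsab1. Neighbours that did not differ beyond the larger of their SDs were, in mutants, Cpa3 with Mcpt4, Mcpt4 with Cma1, Cma1 with Kit, and Ms4a2 with Tpsab1. In controls they were Kit with Cpa3, Cpa3 with Mcpt4, Mcpt4 with Cma1, and Ms4a2 with Tpsab1.

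Ratios within a library set the genes against each other without any scaling between libraries. The ratio of Cpa3 to Kit was 2.89, 2.63 and 1.74 in mutants 1 to 3, against 1.13, 0.454 and 0.563 in controls 1 to 3. That of Mcpt4 to Kit was 3.23, 2.27 and 1.58 in mutants and 0.991, 0.574 and 0.568 in controls. Cma1 and Tpsb2 also stood higher against Kit in every mutant than in every control. For each of these 4 ratios an exact two-sided permutation test gave p = 0.1, the smallest that 3 against 3 libraries allow (adjusted p = 0.14 over 7 ratios). The 4 proteases had separate groups and Kit differed little between the groups, so these ratios restate the levels above.

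For ratios among the proteases the exact test could not pass 0.05 either, as 3 against 3 libraries give no p below 0.1. Tpsb2 stood at 0.245, 0.275 and 0.300 of Cpa3 in mutants 1 to 3, against 0.322, 0.534 and 0.486 in controls 1 to 3, so the ratio was lower in every mutant (exact permutation p = 0.1, adjusted p = 0.14). The ratio of Mcpt4 to Cpa3 overlapped between the groups, at 1.12, 0.862 and 0.907 in mutants and 0.881, 1.26 and 1.01 in controls (exact permutation p = 0.6). That of Cma1 to Cpa3 overlapped as well (exact permutation p = 0.4).

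**Figure D3:**
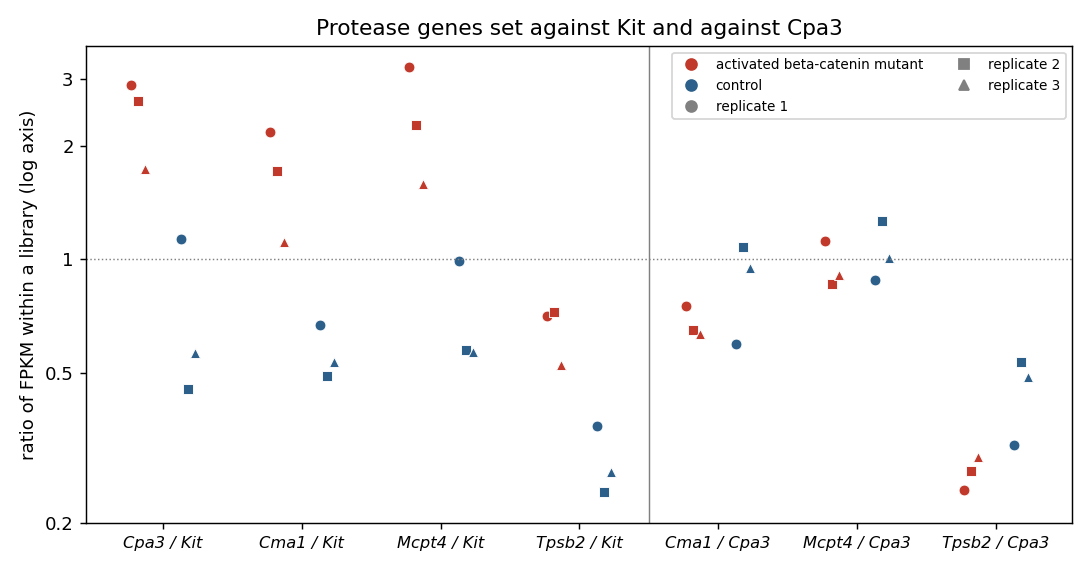
Ratio of FPKM within each library on a log axis, mutants in red on the left of each pair and controls in blue on the right; the dotted line is a ratio of 1. The 4 proteases stand higher against Kit in every mutant, Tpsb2 stands lower against Cpa3 in every mutant, and the other 2 ratios to Cpa3 overlap.

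Other mast cell genes were read from a list of 26, of which 11 were tested. One of these, Fcer1g, rose past the threshold and none fell. It was at 11.4, 10.3 and 9.93 FPKM in mutants 1 to 3 against 4.20, 3.26 and 3.66 FPKM in controls 1 to 3 (log2 difference 1.30, adjusted p = 0.0242), and macrophages express it too. The groups were separate, mutants higher, in 6 of the 11, against 13.0% of all tested genes, and the list's median log2 difference was 0.30. In 3 of the 11 the log2 difference was below 0, at -0.25 for Mitf, -0.22 for Rab27b and -0.09 for Slc18a2, with overlapping groups. Lat2 and Cyp11a1 reached the filter through the mutants, and without them the groups were separate in 4 of 9. Lat2, an adaptor of IgE receptor signalling, averaged 1.98 ± 0.495 FPKM in mutants and 0.855 ± 0.126 FPKM in controls (adjusted p = 0.116). Cyp11a1, a steroidogenic cytochrome, averaged 1.50 ± 0.353 FPKM in mutants and 0.707 ± 0.282 FPKM in controls (adjusted p = 0.219), and Srgn, the granule proteoglycan core, 14.3 ± 3.15 FPKM in mutants and 10.6 ± 0.47 FPKM in controls (adjusted p = 0.401). Cd63, a granule membrane protein, and Hpgds, which makes prostaglandin D, had log2 differences of 0.64 and 0.29 (adjusted p = 0.328 and 0.419).

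Receptors under the filter were picked after their values were seen. The receptor genes Mrgprb1 and Mrgprb2, the second of which responds to basic secretagogues on connective tissue mast cells, averaged 1.13 ± 0.318 and 0.746 ± 0.137 FPKM in mutants, against 0.389 ± 0.102 and 0.299 ± 0.217 FPKM in controls. Il1rl1, the receptor of interleukin 33, averaged 0.717 ± 0.189 FPKM in mutants and 0.320 ± 0.0447 FPKM in controls. In these 3 genes every mutant exceeded every control, as in 11 of all 26 listed genes and 10.1% of all 23412 genes. Of the 23412, 1820 were at 0 in every library. For Mrgprb2, control 3 at 0.548 FPKM almost reached mutant 3 at 0.589 FPKM. In limma's fit with no filter, adjusted p was 0.404 for Mrgprb1, 0.518 for Mrgprb2 and 0.435 for Il1rl1. The mucosal protease genes Mcpt1 and Mcpt2 were seen in a single library each, at 0.0651 FPKM in control 3 and 0.0968 FPKM in mutant 3. Fcer1a, the ligand-binding chain of the IgE receptor, was at 0.0458 to 0.0996 FPKM in mutants and 0.0573 to 0.123 FPKM in controls, with at most 2 reads in any library.

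Signals that act on mast cells were read from a further list. Of 13 growth factor and cytokine genes, 6 were tested, none passed, and their median log2 difference was 0.35. Kitl, the ligand of Kit, averaged 15.7 ± 1.82 FPKM in mutants and 15.3 ± 1.25 FPKM in controls (log2 difference 0.04, 95% interval -0.29 to 0.36, adjusted p = 0.966). Il33 was at 4.26, 2.36 and 2.26 FPKM in mutants 1 to 3 and at 1.60, 1.21 and 2.24 FPKM in controls 1 to 3 (adjusted p = 0.358), so control 3 almost reached the mutants. Tgfb1 averaged 5.01 ± 0.381 FPKM in mutants and 3.64 ± 0.502 FPKM in controls (adjusted p = 0.283). Il6, Ccl2 and Cxcl12 overlapped between the groups, with log2 differences of 0.71, 0.33 and 0.01 (adjusted p from 0.509 to 0.987). Il3, Il9, Il4 and Il13, named after their values were seen, had at most 0.15 FPKM in any library.

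Of 16 genes that signal below the IgE receptor and KIT, 13 were tested, none passed and 8 had all mutants above all controls, against 13.0% of all tested genes, with a median log2 difference of 0.39. Without Lcp2, which reached the filter through the mutants, it was 7 of 12. Lcp2 and Lyn, an adaptor and a kinase shared by mast cells and other leukocytes, had log2 differences of 0.63 (adjusted p = 0.103) and 0.70 (adjusted p = 0.134). The lipid phosphatase gene Inpp5d had 0.62, the kinase gene Pik3cd 0.47, and the transcription factor genes Stat5a and Stat5b 0.40 and 0.43 (adjusted p from 0.143 to 0.395). Plcg1 was below 0, at -0.02, with overlapping groups. Of 16 genes for histamine and lipid mediators, 9 were tested, none passed and 5 had separate groups, against 13.0% of all tested genes, with a median log2 difference of 0.36. Alox5, Cysltr1, Hnmt and Ltc4s reached the filter through the mutants, and without them the groups were separate in 2 of 5, with a median of 0.17. Alox5ap, which serves leukotriene synthesis, averaged 9.24 ± 3.27 FPKM in mutants and 4.01 ± 1.75 FPKM in controls (adjusted p = 0.19). Hnmt, which inactivates histamine, averaged 1.52 ± 0.443 FPKM in mutants and 0.846 ± 0.265 FPKM in controls (adjusted p = 0.338). Cysltr1, a leukotriene receptor, averaged 1.50 ± 0.0674 FPKM in mutants and 0.796 ± 0.159 FPKM in controls (adjusted p = 0.175). The log2 differences of Alox5, Ptgs1 and Ltc4s, which serve leukotriene and prostaglandin synthesis, were 0.52, 0.31 and 0.36 (adjusted p from 0.25 to 0.562). Ptgds and F2rl1 were below 0, at -0.04 and -0.03, with overlapping groups.

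**Figure D4:**
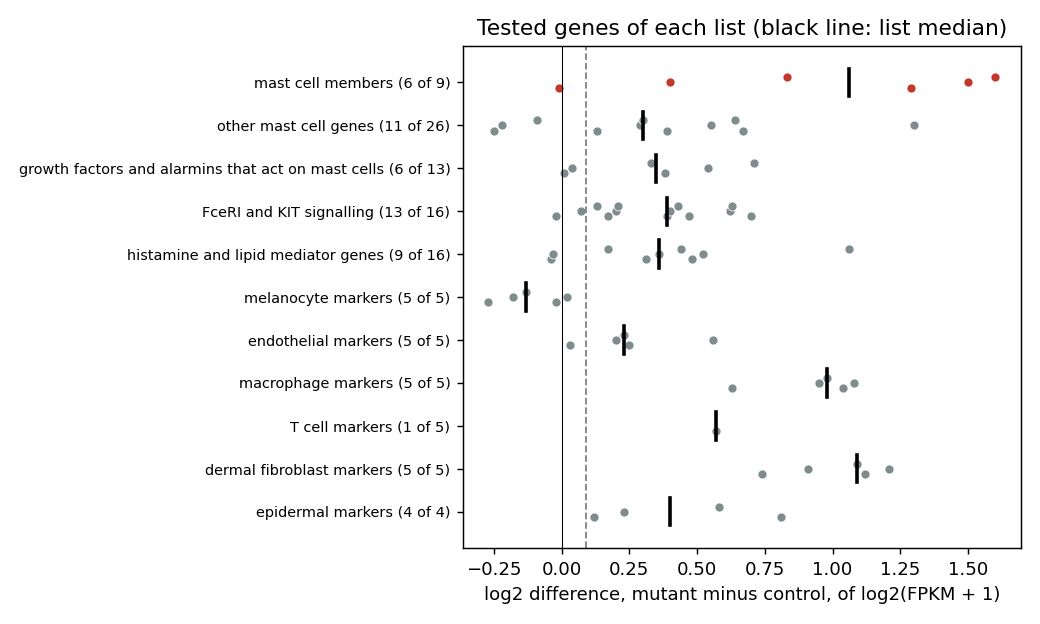
Log2 difference, mutant minus control, of every tested gene in each list; labels give tested genes of all listed, black lines the list medians, and the dashed line the median of all tested genes. The mast cell genes chosen here run from -0.01 to 1.60, beside medians of 0.98 for macrophage, 1.09 for fibroblast and -0.13 for melanocyte genes.

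Markers of other cell types are given for comparison. Of 5 macrophage genes (Emr1, Csf1r, Cd68, Mrc1 and Cd163), 4 had separate groups, against 13.0% of all tested genes. The median log2 difference of the 5 was 0.98, against 0.09 for all tested genes. Their summed levels were 72.3 to 122 FPKM in mutants and 28.9 to 57.6 FPKM in controls. The 5 fibroblast genes named above had a median log2 difference of 1.09, and 3 had separate groups, against 13.0% of all tested genes. The part of either in the mast cell values was not tested. Basophils share Ms4a2 with mast cells, and of their own protease genes, Mcpt8 was at 0 in 4 of 6 libraries and Prss34 in 5 of 6. T cell genes were low, with 1 of 5 tested and summed levels of 3.17 to 3.80 FPKM in mutants and 0.946 to 2.81 FPKM in controls. Every mutant lay above every control in 4 of these 5, against 10.1% of all 23412 genes.

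Among 12285 tested genes outside the members and small RNAs, the 5 whose values followed the mean standardised profile of the 6 tested members most closely were Nqo2, Prlr, Hnmt, Fam105a and Ccdc134. Pearson's r over the 6 libraries was 0.994 to 0.999. The libraries share the split into 2 groups and the high value of mutant 1, so this likeness is a description. Their own log2 differences ran from 0.14 for Prlr to 1.08 for Fam105a, and none passed the threshold (adjusted p from 0.122 to 0.759).

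Single libraries decided whether a protease gene passed. Without control 1 the adjusted p of Cpa3 was 0.0191. Without control 3 that of Cpa3 was 0.0499 and of Cma1 0.0488, and without mutant 3 that of Cma1 was 0.0374 and of Mcpt4 0.0497. Without any of the other 3 libraries no member passed. When Y-linked expression entered the model as a term, so that control 3 alone stood against the 3 mutants, the log2 differences were 1.83 for Cpa3, 1.38 for Cma1, 1.76 for Mcpt4 and 0.92 for Tpsb2, with adjusted p from 0.178 to 0.33. On the recovered reads limma-voom called Cpa3 (log2 difference 1.80, adjusted p = 0.0416) and no other member, where 0.533% of tested genes were called higher. That fit took its library sizes from the relative depth implied by the FPKM values, not from the read totals. It is therefore no check on the FPKM scaling.

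**Figure D5:**
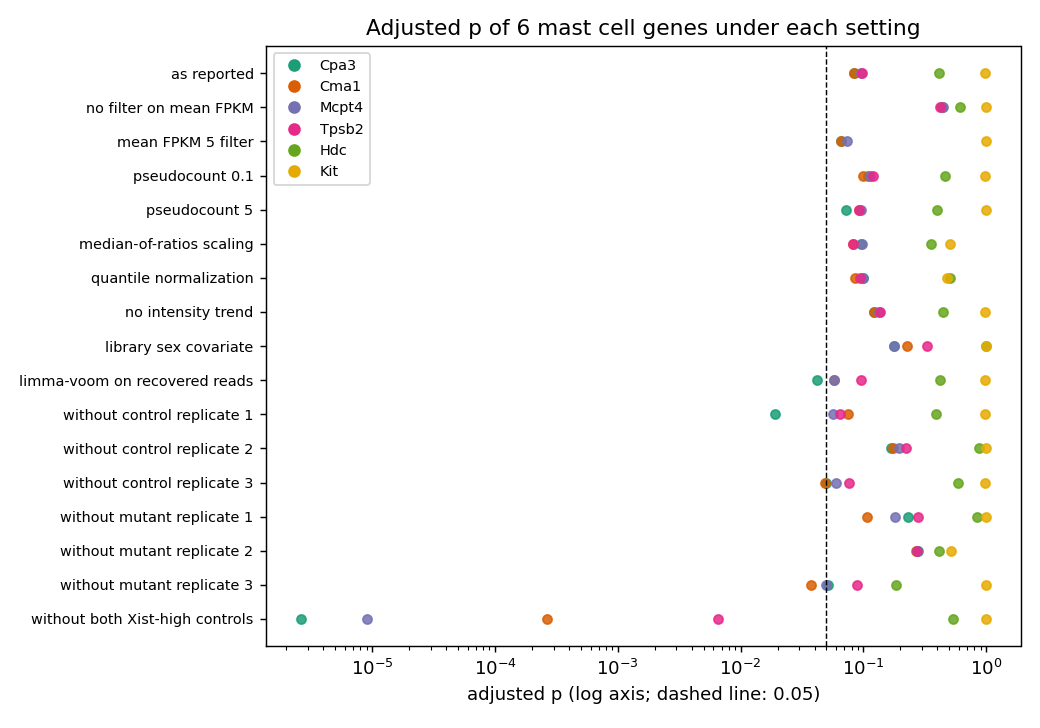
Adjusted p on a log axis for 6 genes under the reported setting (top) and the alternatives, with a dashed line at 0.05. The replicate block, under which 4 members were called, is not drawn. As reported, Cpa3, Cma1, Mcpt4 and Tpsb2 stand between 0.0845 and 0.097; a few alternatives bring some of them past the line, and Hdc and Kit pass under none of those drawn.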

How the data were processed

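RNA of 6 ventral dermis samples was made into stranded paired-end total RNA libraries, per the labels' protocols. Per the submitters' processing notes, the tools were GSNAP and HTSeq and the build mm10. Neither their versions nor the annotation, read length or options were stated in the labels, and none was assumed. FPKM values, computed by the authors, fill 1 column per library of the deposited table, and 0 columns were left unmapped.

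Values were compared as log2(FPKM + 1) for genes averaging 1 FPKM or more over the 6 libraries, with limma 3.58.1 (R 4.3.3, intensity trend, two-sided, no covariate) and Benjamini-Hochberg adjustment over all tested genes at 0.05. Members under the filter were read from a fit without it. The FPKM steps of each gene were solved for whole reads, which were found for 23412 of 23412 genes at a relative tolerance of 3e-09. This includes 1820 genes at 0 everywhere and 1448 seen in 1 library, which were set to 1 read. Steps were tested on simulated data. Libraries of a group differed beyond sampling noise, with chi-square values of 15.7 to 79.8 per degree of freedom. The design text counts 3 mice per group, so p-values reflect the spread between mice. Controls 1 and 2 had almost no Y-linked RNA and all 3 mutants had it. Genotype and library sex therefore cannot be fully told apart in these p-values. An exact test of 3 against 3 cannot go below p = 0.1.

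The members and lists were chosen with earlier results of these data known. All members were named, with up to 6 tested genes of smallest p from each mast cell list and the 5 genes most like the members. The tested genes below 0 in the mast cell lists were named as well. Gene positions come from GENCODE M21 (GRCm38). Ratios within a library were compared with exact permutation tests (scipy 1.17.1). Alternatives covered the filter, pseudocount, scaling, trend, block, library sex, each library left out and limma-voom on recovered reads. The limma-voom library sizes were those implied by the FPKM values. The fit without both Xist-high controls was added after seeing the data.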

Additional observations from a re-analysis of the deposited data

How the results depend on the processing

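With 18 genes higher and 0 lower as reported, other settings gave 9 higher with pseudocount 0.1, 10 without the trend, 32 after quantile normalization, 67 with limma-voom on recovered reads, 10 higher and 1 lower with the sex covariate, and 5 lower with no filter. Without 1 library, 3 to 189 genes were higher and 0 to 4 lower, and 0 to 2 members were called higher, against 0 as reported and 1 with limma-voom. Without both Xist-high controls, an alternative chosen after seeing the data, 198 genes were higher, 68 lower and 4 members were called. That fit takes its spread from the 3 mutants alone and assumes that control 3 varies like them. The median log2 difference of the tested members, 1.06, was 0.40 with no filter, which adds the 3 low members, 1.39 with the mean FPKM 5 filter, which leaves out Tpsb2 and Hdc, and 0.62 with pseudocount 5, which shrinks low genes. The replicate block gave 67 genes higher, 1 lower and 4 members called (Cpa3, Cma1, Mcpt4 and Tpsb2). Deviations of same-numbered libraries correlated at 0.00, 0.04 and -0.08. With 3 libraries per group these values cannot tell whether same-numbered mice shared a litter or a batch. Over 17 alternatives the log2 difference ran from 1.09 to 1.96 for Cpa3, 0.83 to 1.48 for Cma1 and 1.04 to 1.77 for Mcpt4, and over 16 from 0.41 to 1.11 for Tpsb2; Kit stayed within -0.13 to 0.13. No count of separate groups was made under the block, sex, trend, quantile or voom settings, and pseudocount and filter leave it as it is. Depth limits Tpsab1 most, at 1 to 18 reads.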
